A study of Mus with 8 samples.

Results

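Serpins are a family of proteins named for serine protease inhibition, and 10 of their genes that mouse liver transcribes are described here: Serpina3n, Serpina3m and Serpina3k, the copies Serpina1a, Serpina1b, Serpina1c, Serpina1d and Serpina1e, Serpina10, and Serpinf1. They are 10 of the 54532 genes in the deposited table, taken by name, and all 10 passed the filter on low counts. They were selected with their differences in this same comparison already known, so their values are given as a description, with no test. Where a member is said to pass or leave a threshold, this too is description. An inhibitory serpin offers a loop that its target protease cleaves, then swings the trapped protease across the protein so that both are inactivated together. Hepatocytes, the main cells of the liver, secrete many serpins into plasma, where they restrain enzymes of coagulation, complement activation and neutrophil granules. Some plasma serpins are acute-phase proteins, whose synthesis in the liver changes during inflammation.

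RNA came from liver tissue of mice given dextran sulfate sodium (DSS), a compound that injures the lining of the colon and so models colitis, at 2.5% until day 6. The DSS group holds 4 libraries labelled with this treatment alone (numbers 15, 48, 49 and 50). The diet-alcohol group holds 4 libraries (numbers 35, 45, 65 and 71) from mice that had DSS, a high-fat diet and alcohol. The design text names a purified high-fat feed for one arm after DSS and a high-fat feed with alcohol for the other, while the labels name no feed for the DSS group. All 8 libraries thus carry the DSS exposure, diet and alcohol cannot be told apart, and no liver without DSS was analysed here. Strain, age and sex are not named in the labels. Each library has its own number, but the labels do not state that each is a separate mouse, so every p-value below measures the spread between libraries.

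Library totals ran from 12502300 to 16967839 counts. Mitochondrially encoded genes took 55.8 to 79.1% of the counts in the DSS libraries and 30.2 to 73.0% in the diet-alcohol libraries (means 65.2% ± 11.4 and 45.2% ± 19.2; SD over 4 libraries a group). An exact permutation test, two-sided, gave p = 0.143, and the smallest p this exact test can give is 0.0286. Nuclear genes shared the remaining 2722757 to 10947612 counts. Diet-alcohol library 35 stood apart: only 784 of its genes had 1 to 9 counts, where each of the other 7 libraries had 4319 to 4987 such genes. The members themselves had between 200 and 128622 counts in every library, so counting error is small beside the spread between libraries. In bulk tissue, fewer cells of a type and less RNA per cell cannot be told apart. The liver label was checked against hepatocyte markers: Alb, the albumin gene, stood at 14781 to 50256 CPM (counts scaled to library size). Of the 10 listed markers, 9 were found under the symbol used, and all 9 passed the low-count filter. The symbol Tf was not found, so that marker was not looked at.

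The 10 genes differed in direction between the groups. Serpina3n was 7.70-fold higher in the diet-alcohol group, Serpina10 3.44-fold and Serpina3m 3.35-fold, while Serpinf1 was 2.86-fold lower and Serpina3k 1.75-fold lower. The 5 Serpina1 copies were 1.15- to 1.73-fold lower, with overlapping groups for each. These folds come from an edgeR quasi-likelihood fit of all genes. The median log2 fold change of the 10 genes was -0.31, with 3 values above 0 and 7 below, beside a median of -0.0058 over all 11729 tested genes. Of the 10, 3 passed the threshold as higher (Serpina3n, Serpina3m and Serpina10) and 1 as lower (Serpinf1), at a Benjamini-Hochberg adjusted p under 0.05. Of all tested genes 1.26% passed, 0.588% as higher and 0.674% as lower. In 5 of the 10 genes the CPM of the groups did not overlap, where 8.77% of all tested genes had no overlap. Since the genes were chosen on this contrast, nothing is read from these counts. The same holds where a member passes or leaves the threshold in the paragraphs below. All 10 genes together took 3.64 to 5.08% of the counts of nuclear genes in the DSS libraries and 3.08 to 3.80% in the diet-alcohol libraries, which overlap.

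**Figure D1:**
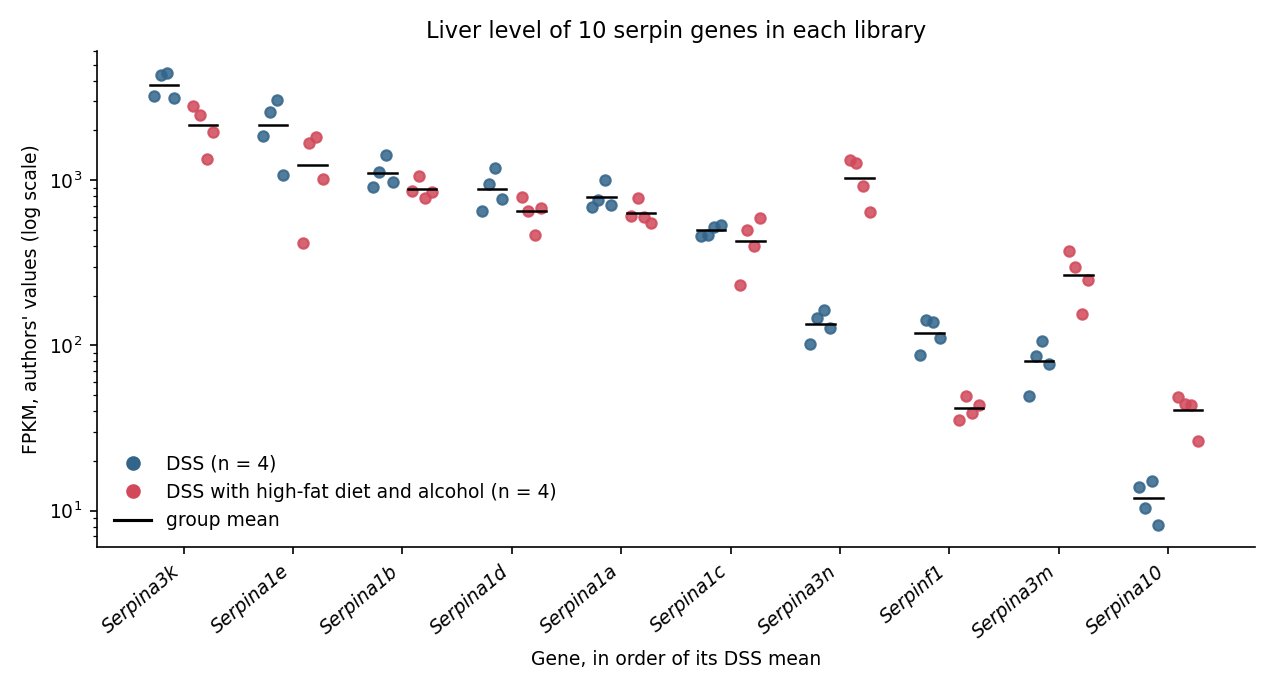
Level of each serpin gene in every library, as the authors' FPKM (fragments per gene length and library size, which lets genes be compared per length) on a log axis, with genes in order of their DSS mean. Points are libraries (4 per group) and bars are group means. Serpina3n, Serpina3m and Serpina10 lie higher in all diet-alcohol libraries, Serpinf1 and Serpina3k lower, and the 5 Serpina1 copies overlap.

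Levels per length spanned more than 2 orders of magnitude. In the DSS group Serpina3k led with a mean of 3768 ± 687.6 FPKM (SD, n = 4), the ninth highest of 54495 nuclear genes. Serpina1e followed at 2139 ± 870.6 FPKM, and its range lay below that of Serpina3k. Serpina1e, Serpina1b (1101 FPKM), Serpina1d (888 FPKM) and Serpina1a (786 FPKM) each overlapped their neighbour in the order. Serpina1c, at 497 ± 39.1 FPKM, lay below Serpina1a in every library. Serpina3n (134 ± 26.1 FPKM), Serpinf1 (119.6 ± 26.0 FPKM) and Serpina3m (80.0 ± 23.9 FPKM) formed an overlapping group below that, and Serpina10 was lowest at 11.9 ± 3.15 FPKM, rank 1353.

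The order was different in the diet-alcohol group. Serpina3k still led at 2148 ± 642.2 FPKM, but its range now overlapped that of Serpina1e (1238 ± 649.5 FPKM). Serpina3n came next at 1036 ± 314.9 FPKM, and moved from rank 154 to rank 29 among the nuclear genes. Its range overlapped those of its neighbours Serpina1e and Serpina1b. From Serpina3k down to Serpina3m (268 ± 90.6 FPKM) each gene overlapped the next. Serpinf1 (41.8 ± 6.13 FPKM, rank 454) and Serpina10 (40.8 ± 9.87 FPKM, rank 463) lay below all of these and overlapped each other. In the DSS group Serpinf1 had lain above Serpina10 in every library.

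The Serpina3 genes are a cluster of mouse copies that correspond to the single human gene for alpha-1-antichymotrypsin, SERPINA3, and copies of it differ mainly in the loop that proteases cleave. Serpina3n encodes an inhibitor of granzyme B and of neutrophil proteases such as cathepsin G. It lies on chromosome 12 (104406729 to 104414329, plus strand, GRCm38; ENSMUSG00000021091). Serpina3n stood at 212, 307, 344 and 271 CPM in DSS libraries 15, 48, 49 and 50, and at 2795, 2659.96, 1920.05 and 1362 CPM in diet-alcohol libraries 35, 45, 65 and 71. The lowest diet-alcohol library lay far above the highest DSS library, and the diet-alcohol libraries differed among themselves by 2.05-fold. The means were 284 ± 56.1 and 2184 ± 669.7 CPM (SD, n = 4 each), a log2 fold change of 2.95 ± 0.30 (SE). Without library 35 the log2 fold change was 2.80, and over the 18 alternatives that fit the gene singly it ran from 2.80 to 3.11.

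Serpina3m (chromosome 12, plus strand; ENSMUSG00000079012) stood at 85.5, 152, 188 and 137 CPM in the DSS libraries and at 658, 520.2, 269 and 439 CPM in the diet-alcohol libraries. The groups did not overlap, but diet-alcohol library 65 was only 1.43 times the highest DSS library. The means were 141 ± 42.5 and 471 ± 163 CPM (SD, n = 4 each), a log2 fold change of 1.75 ± 0.32 (SE). It was 1.54 without library 35 and 1.47 with the mitochondrial share of each library as a covariate. Serpina3m left the set of genes past the threshold with that covariate, and also without DSS library 15 (log2 fold change 1.56), 48 (1.78), 49 (1.91) or 50 (1.72) or diet-alcohol library 45 (1.69).

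Serpina3k encodes contrapsin, an abundant plasma inhibitor of trypsin-like proteases. Serpina3k (chromosome 12, 104338486 to 104346144, plus strand; ENSMUSG00000058207) stood at 6658, 9021, 9319 and 6669 CPM in the DSS libraries and at 5987, 5172, 2793 and 4137 CPM in the diet-alcohol libraries. Every diet-alcohol library lay below every DSS library, library 35 being the closest. The means were 7917 ± 1452 and 4522 ± 1379 CPM (SD, n = 4 each), a log2 fold change of -0.81 ± 0.30 (SE) that did not pass the threshold. It was -0.97 without library 35 and -1.14 with the mitochondrial covariate.

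Within the sum of the 3 genes, the makeup separated the groups and the sum did not. Each of the 3 was chosen with this contrast known and had groups without overlap in CPM. The shares and ratios below thus mainly restate those differences. The summed FPKM of Serpina3k, Serpina3m and Serpina3n was 3982 ± 730.5 in the DSS group and 3452 ± 978.2 in the diet-alcohol group, with overlapping ranges. With their counts added to one row before the fit, the log2 fold change was -0.22 ± 0.30 (SE). Serpina3n made up 3.04, 3.22, 3.47 and 3.80% of the summed FPKM in DSS libraries 15, 48, 49 and 50, and 29.1, 31.4, 38.1 and 22.5% in diet-alcohol libraries 35, 45, 65 and 71. Serpina3k went from 93.9 to 95.5% of the sum down to 55.5 to 68.7%. Serpina3m went from 1.47 to 2.31% up to 6.39 to 8.73%. None of these shares overlapped between the groups, and those of Serpina3n and Serpina3k varied little within the DSS group. Without library 35 the diet-alcohol mean share was 30.7% ± 7.78 (SD, n = 3) for Serpina3n, beside 30.3% ± 6.40 (n = 4) with it.

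**Figure D2:**
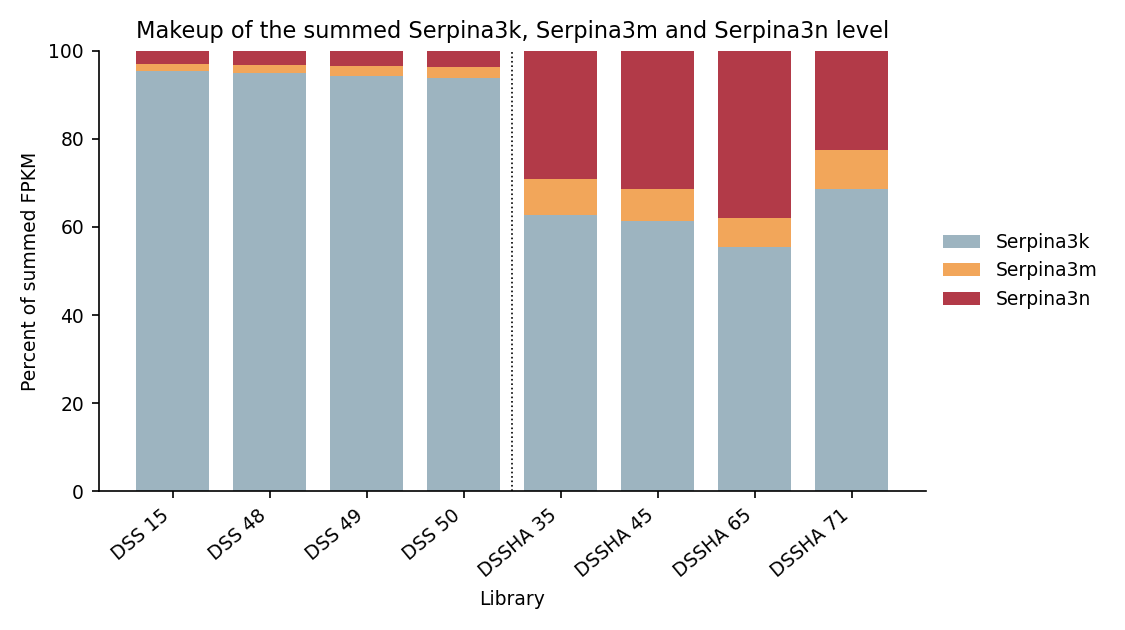
Percent of the summed FPKM of Serpina3k, Serpina3m and Serpina3n that each gene took, one bar per library, with the DSS libraries left of the dotted line and the diet-alcohol libraries right of it. Serpina3n took 3.04 to 3.80% of the sum in the DSS libraries and 22.5 to 38.1% in the diet-alcohol libraries.

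Because such shares are formed inside a library, they do not depend on its scaling. Serpina3k FPKM exceeded Serpina3n FPKM by 24.7 to 31.4 times in the DSS libraries and by 1.46 to 3.05 times in the diet-alcohol libraries. The ratio of Serpina3n to Serpina3m was 1.52 to 2.07 in the DSS group and 2.58 to 5.95 in the diet-alcohol group. The ratio of Serpina3m to Serpina3k was 0.0154 to 0.0246 in the DSS group and 0.115 to 0.131 in the diet-alcohol group, a narrow range. Diet-alcohol library 65, whose mitochondrial share (73.0%) lay among those of the DSS libraries, had the highest share of Serpina3n and the lowest of Serpina3k in its group. Library 71, with the lowest mitochondrial share (30.2%), had the lowest share of Serpina3n among the diet-alcohol libraries. Within the DSS group the share of Serpina3n rose with the mitochondrial share, from 3.04% in library 15 (mitochondrial share 55.8%) to 3.80% in library 50 (79.1%). The part of the mitochondrial share in these values was not tested.

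The gene models limit how far these copies can be separated. In the deposited table Serpina3m runs from 104338486 to 104394257 and so contains all of Serpina3k, with which it shares its start; the RefSeq model of Serpina3m on GRCm38.p6 begins at 104387157. Likewise the model of Serpina1b runs from 103728156 to 103830373, a span of 102 kb that contains Serpina1d, where the RefSeq model ends at 103738189. How reads in shared exons or near-identical copies were assigned is not stated in any header or label, so the split between Serpina3k and Serpina3m, and among the Serpina1 copies, is uncertain. Serpina3n overlaps no other member.

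The Serpina1 genes are mouse copies of the gene for alpha-1-antitrypsin, the main plasma inhibitor of neutrophil elastase. Serpina1e (chromosome 12, 103946931 to 103958975, minus strand; ENSMUSG00000072849) varied most. It stood at 3015, 4259, 5065 and 1782 CPM in the DSS libraries and at 696, 2779.5, 2977 and 1699 CPM in the diet-alcohol libraries. Library 35 was lowest by a wide gap, DSS library 50 was low in its own group, and the groups overlapped. The log2 fold change was -0.79 ± 0.46 (SE), and -0.51 without library 35. Serpina1e also had the widest spread within groups of the 10 genes, with a coefficient of variation of 40.7% in the DSS group and 51.8% in the diet-alcohol group.

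The other copies were steadier. Serpina1b stood at 2209 to 3486 CPM in the DSS libraries and at 1906 to 2621 CPM in the diet-alcohol libraries (log2 fold change -0.31 ± 0.25, SE). Serpina1a stood at 1270.3 to 1869.6 and 1038 to 1459.8 CPM (-0.31 ± 0.23). Serpina1d stood at 918 to 1691 and 656 to 1133 CPM (-0.46 ± 0.27). Each of these genes was highest in DSS library 49, and DSS library 15 was their lowest in its group. Serpina1c stood at 629.9 to 754 CPM in the DSS libraries and at 327 to 826 CPM in the diet-alcohol libraries, with a log2 fold change of -0.21 ± 0.28 (SE) that shrank to -0.0013 without library 35. All 5 copies were lower on average and none passed the threshold. With their counts added to one row, the log2 fold change was -0.48 ± 0.29 (SE).

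The mix of Serpina1 copies did not separate the groups. Serpina1e took 40.6, 44.0, 42.6 and 26.4% of the summed FPKM in DSS libraries 15, 48, 49 and 50, and 14.4, 36.0, 44.8 and 27.7% in diet-alcohol libraries 35, 45, 65 and 71. Both groups thus held libraries near 45% and libraries under 30%. The mean share was 38.4% ± 8.15 (SD, n = 4) in the DSS group and 30.7% ± 12.9 in the diet-alcohol group, or 36.2% ± 8.55 (n = 3) without library 35. Serpina1b took 19.0 to 24.0% and 19.2 to 29.4%, Serpina1d 14.3 to 19.0% and 11.5 to 27.2%, Serpina1a 12.9 to 17.4% and 14.7 to 21.0%, and Serpina1c 7.30 to 13.2% and 8.02 to 16.0% in the DSS and diet-alcohol libraries. Library 35 held the highest share of Serpina1a, Serpina1b and Serpina1d in its group. The shares of the Serpina3 genes did not overlap between the groups, but neither did the CPM of each of those genes taken singly.

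**Figure D3:**
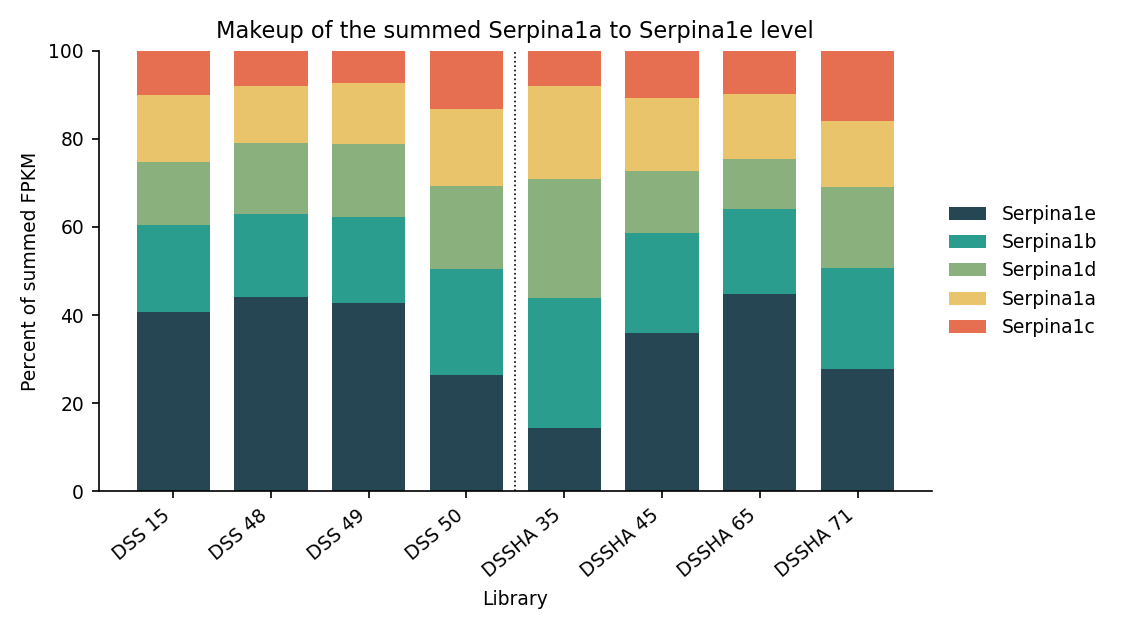
Percent of the summed FPKM of Serpina1a to Serpina1e that each copy took, one bar per library, with the DSS libraries left of the dotted line and the diet-alcohol libraries right of it. Serpina1e ranged from 26.4 to 44.0% in the DSS libraries and from 14.4 to 44.8% in the diet-alcohol libraries, so the groups overlap.

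Serpina10 encodes the protein Z-dependent protease inhibitor, which inactivates coagulation factor Xa when bound to protein Z. Serpina10 (chromosome 12, 103614786 to 103631444, minus strand; ENSMUSG00000061947) stood at 49.1, 36.8, 53.9 and 29.8 CPM in the DSS libraries and at 177, 159, 153 and 95.4 CPM in the diet-alcohol libraries. The groups did not overlap, and the 4 diet-alcohol libraries kept the order they had for Serpina3n, from 35 down to 71. The DSS libraries did not: from high to low they were 49, 15, 48 and 50 for Serpina10. For Serpina3n they were 49, 48, 50 and 15. The means were 42.4 ± 11.1 and 146 ± 35.2 CPM (SD, n = 4 each), a log2 fold change of 1.78 ± 0.27 (SE), or 1.67 without library 35. Serpina10 left the set of genes past the threshold without DSS library 48, with a log2 fold change of 1.71.

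Its cofactor and its target were added for their role, after their values were seen. Proz, the gene for protein Z, stood at 94.6 to 161 CPM in the DSS libraries and at 112 to 162 CPM in the diet-alcohol libraries (log2 fold change 0.04 ± 0.24, SE; edgeR adjusted p = 0.972). Serpina10 had 0.240 to 0.519 counts for each Proz count in the DSS libraries and 0.831 to 1.58 in the diet-alcohol libraries, without overlap. With Proz nearly level between the groups, this ratio mainly restates the difference of Serpina10. F10, the gene for the target factor, differed by -0.01 ± 0.22 on the log2 scale (SE; adjusted p = 0.990, edgeR).

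Serpinf1 encodes pigment epithelium-derived factor (PEDF), a secreted serpin that inhibits no protease and is known as an inhibitor of vessel growth. Serpinf1 lies apart from the others on chromosome 11 (75409769 to 75422701, minus strand; ENSMUSG00000000753). It stood at 207, 342, 336 and 268 CPM in the DSS libraries and at 85.6, 119, 92.7 and 105 CPM in the diet-alcohol libraries. All diet-alcohol libraries lay within a 1.39-fold range, well below the lowest DSS library. The means were 288 ± 63.6 and 101 ± 14.7 CPM (SD, n = 4 each), a log2 fold change of -1.52 ± 0.23 (SE), or -1.45 without library 35. Serpinf1 left the set of genes past the threshold with the mitochondrial covariate (log2 fold change -1.59) and without DSS library 48 (-1.43).

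The ranking of libraries within a group was more alike across the 10 genes in the DSS group. There, library 49 was highest for 8 of the 10 genes and library 15 lowest for 8. This order is not particular to the 10, which include the similar Serpina1 copies. Alb, for example, also had library 49 highest (50256.5 CPM) and 15 lowest (30192.5 CPM) in the DSS group. Hp did not, with library 15 highest at 4078 CPM. In the diet-alcohol group library 35 was highest for 5 genes and lowest for 3, library 45 highest for 3, library 65 highest for 1 and lowest for 4, and library 71 highest for 1 and lowest for 3. The member with the highest fold change was Serpina3n and the one with the lowest was Serpinf1, and genes outside the 10 were ranked by how closely their log2 CPM, centred on its mean over the 8 libraries, followed each. Closest to Serpina3n were Hp, the haptoglobin gene (root mean square difference 0.34, log2 fold change 2.66), Dnajc12, a co-chaperone gene (0.42 and 2.99), and Fgl1, a fibrinogen-like gene secreted by hepatocytes (0.47 and 2.61). Closest to Serpinf1 were Afm, the afamin gene (0.12 and -1.62), Gm2a, which encodes a lysosomal activator protein (0.17 and -1.46), and Ces1c, a plasma carboxylesterase gene (0.19 and -1.36). They were picked for this likeness over libraries of both groups, so their differences are given without a test.

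The other serpin genes did not pass the threshold. Of 44 listed in 3 groups, 16 were tested and 12 had no count in any library, and edgeR placed none past the threshold, while 5 had an unadjusted p under 0.05. DESeq2 called 4 and limma-voom none. Their median log2 fold change was -0.37, with 5 values above 0 and 11 below. These lists and the gene lists below were written with earlier results of these data known. Their calls and adjusted p-values are thus description, as for the members. The share of all tested genes with an unadjusted p under 0.05 is not given here. Nothing is therefore read from counts of such genes, here or below. Across the Serpina gene cluster on chromosome 12, from 103614786 to 104414329, 28 Serpina genes lie within 799.5 kb, of which 15 were tested and 9 belong to the 10 described here. High and low fold changes are interleaved in it: Serpina6, which encodes the corticosteroid carrier transcortin, lies between Serpina10 and Serpina1b and differed by -3.10 ± 1.06 on the log2 scale (SE; adjusted p = 0.239, edgeR).

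Of the other clade A genes, 6 of 16 were tested. Serpina7, which encodes thyroxine-binding globulin and lies on the X chromosome, stood at 1.50 to 8.79 CPM in the DSS libraries and at 99.6, 24.3, 7.07 and 7.62 CPM in diet-alcohol libraries 35, 45, 65 and 71. The groups overlapped, and its log2 fold change of 3.25 ± 0.89 (SE; adjusted p = 0.130, edgeR) was 1.87 without library 35. Serpina12, the vaspin gene, differed by -1.30 ± 0.38 on the log2 scale (SE; adjusted p = 0.156, edgeR), and by -1.70 (adjusted p = 0.00919) without library 35, which was the highest diet-alcohol library at 11.8 CPM. Serpina6 stood at 22.5 to 91.9 CPM in the DSS libraries and at 0 to 21.0 CPM in the diet-alcohol libraries, with no count in library 35. It passed without library 71 (log2 fold change -5.13, adjusted p = 0.0455). Serpina3f differed by -1.16 ± 0.51 on the log2 scale (SE; adjusted p = 0.403, edgeR).

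Of the 10 genes of clades C to I, 6 were tested. Serpinc1, the gene for antithrombin, stood at 884, 1350.0, 1569.5 and 1279.9 CPM in the DSS libraries and at 640.5, 800.03, 715 and 645 CPM in the diet-alcohol libraries. The groups did not overlap, and its log2 fold change of -0.86 ± 0.24 (SE) had an edgeR adjusted p of 0.139 (DESeq2 adjusted p = 0.0177). Serpind1, the gene for heparin cofactor II, had -0.82 ± 0.44 (adjusted p = 0.532), Serpinf2, the gene for the plasmin inhibitor alpha-2-antiplasmin, -0.39 ± 0.28 (0.671) and Serpine2 -1.09 ± 1.05 (0.767). Intracellular clade B serpins were scarce, at 18.6 to 26.8 summed CPM in the DSS libraries and 20.2 to 28.1 CPM in the diet-alcohol libraries. Of 18 listed, 4 were tested, and their log2 fold changes were -1.39 for Serpinb1a, 0.29 for Serpinb6a, -0.34 for Serpinb9 and -0.20 for Serpinb6b, with edgeR adjusted p from 0.658 to 0.919.

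**Figure D4:**
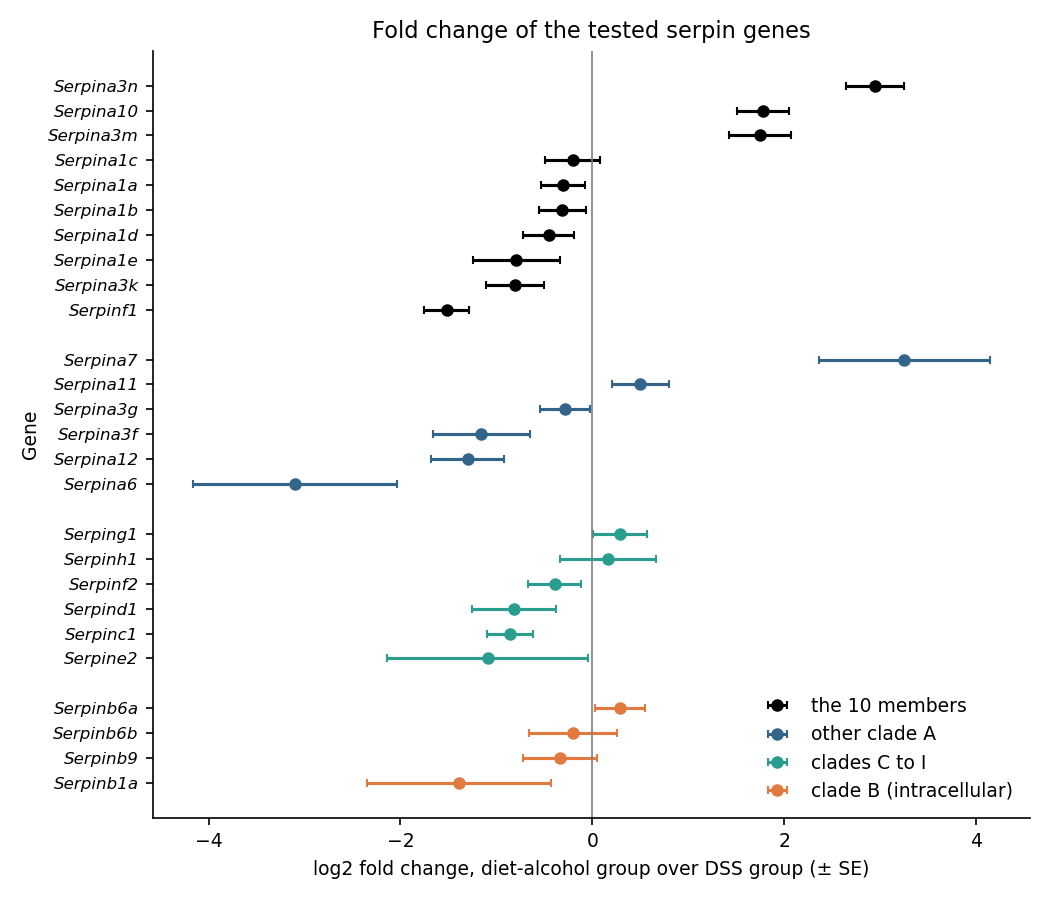
Log2 fold change, diet-alcohol libraries over DSS libraries, for the 10 serpin genes described and the 16 other listed serpin genes that were tested, from the edgeR fit (4 libraries per group). The tested pseudogene Serpina4-ps1 was on no list and is not shown. Points are estimates and bars ± 1 standard error. The 10 genes run from 2.95 (Serpina3n) to -1.52 (Serpinf1), and Serpina7 and Serpina6 lie beyond that range on either side.

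Of 25 serine proteases and related plasma proteins that serpins act on or work with, 18 were tested, and edgeR placed 1 past the threshold as higher and 1 as lower. Of the 18, 6 had an unadjusted p under 0.05, DESeq2 called 3 and limma-voom 1, and the median log2 fold change was -0.38. Prtn3, the gene for neutrophil proteinase 3, rose from a range of 0 to 0.77 CPM in the DSS libraries to one of 2.46 to 19.2 CPM in the diet-alcohol libraries (log2 fold change 4.71 ± 0.87, SE; edgeR adjusted p = 0.0220). That call was lost without any one of DSS libraries 15, 48, 49 and 50 or diet-alcohol libraries 45 and 65 (adjusted p 0.0546 to 0.0820). It was also lost by limma-voom, without the low-count filter and with the mitochondrial covariate. Tmprss6, a hepatocyte membrane protease that lowers hepcidin, fell from a range of 99.95 to 147 CPM to one of 33.0 to 62.5 CPM (-1.24 ± 0.25; edgeR adjusted p = 0.0327). Its call was lost without DSS library 48, 49 or 50 or diet-alcohol library 45, 65 or 71 (adjusted p 0.0610 to 0.161) and with the covariate. C1ra, a protease of the complement pathway, had -1.13 ± 0.25 (edgeR adjusted p = 0.0589, DESeq2 0.00259). It passed in edgeR without the low-count filter (0.0115), without DSS library 15 (0.0277) and without diet-alcohol library 35 (0.0190). Klkb1, the plasma kallikrein gene, had -0.96 ± 0.30 (0.184). Elane, the gene for the elastase that alpha-1-antitrypsin restrains, had 25 counts over all 8 libraries and was not tested.

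Secreted inhibitors of other families moved both ways as well. Of 24 listed, 19 were tested, 3 were higher and 1 was lower by edgeR, with a median log2 fold change of 0.02. DESeq2 called 6 and limma-voom 4, and 7 had an unadjusted p under 0.05. Itih3 and Itih4, which encode heavy chains of the inter-alpha-trypsin inhibitor family, rose by 1.77 ± 0.24 and 1.76 ± 0.28 on the log2 scale (SE; edgeR adjusted p = 0.00442 and 0.00960), and Itih3 reached 2318 to 3427 CPM. Kng2, a kininogen gene, rose by 1.25 ± 0.22 (0.0160). Mug2, a murinoglobulin gene of the alpha-macroglobulin family, fell by 1.44 ± 0.28 (0.0299). The call of Itih3 held under every alternative (largest adjusted p 0.0376). Itih4 lost its call without DSS library 48 or 50 (adjusted p 0.0588 and 0.0583). Kng2 and Mug2 lost theirs without DSS library 48, 49 or 50 or diet-alcohol library 45, at adjusted p 0.0514 to 0.0967 for Kng2 and 0.105 to 0.128 for Mug2. All but Itih3 also lost the call with the mitochondrial covariate.

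Genes that regulate such secreted proteins were mostly below the threshold. Of 26 regulators of acute-phase and growth hormone transcription, all tested, edgeR placed 1, Socs2, past the threshold, while 9 had an unadjusted p under 0.05, DESeq2 called 4 and limma-voom 1. Socs2, a growth hormone target that restrains the signal of that hormone, fell from a range of 30.5 to 53.2 CPM in the DSS libraries to one of 3.99 to 13.03 CPM in the diet-alcohol libraries (log2 fold change -2.77 ± 0.41, SE; edgeR adjusted p = 0.00762), a call kept under every alternative. Nfkbiz, a nuclear cofactor of NF-kappaB, differed by 1.77 ± 0.38 on the log2 scale (adjusted p = 0.0534, edgeR). Il1r1, the interleukin-1 receptor gene, had 1.76 ± 0.44 (0.0913), and Osmr, the oncostatin M receptor gene, 1.22 ± 0.34 (0.136). For each of these 3 genes the groups did not overlap. DESeq2 called Nfkbiz (adjusted p = 0.00454) and Il1r1 (0.00421). With edgeR both also passed without the low-count filter (0.0150 and 0.00726), Nfkbiz without library 35 (0.0422), and Il1r1 with the mitochondrial covariate (0.0147) and without library 71 (0.0366).

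Serpins fold in the endoplasmic reticulum, and from there are exported or sent for degradation. Of 21 genes for these steps, all tested, edgeR called none, while 5 had an unadjusted p under 0.05, DESeq2 called 1 and limma-voom none. The smallest p-values belonged to the chaperone gene Calr (log2 fold change 0.80 ± 0.26, SE; edgeR adjusted p = 0.206), Derl3 (2.93 ± 0.98, 0.225), Edem3 (-0.92 ± 0.31, 0.226) and Surf4 (0.58 ± 0.23, 0.323). Of 9 genes for receptors of serpins, protease complexes and PEDF, 7 were tested and edgeR called none, while 3 had an unadjusted p under 0.05, DESeq2 called 3 and limma-voom none. Lrp1, an endocytic receptor of serpin and protease complexes, stood at 211 to 466 CPM in the DSS libraries and at 62.7 to 164 CPM in the diet-alcohol libraries (-1.47 ± 0.35; edgeR adjusted p = 0.0806). Sdc1 had -1.42 ± 0.35 (0.0900) and Rpsa 0.81 ± 0.24 (0.161). For each of these 3 genes the groups did not overlap. DESeq2 called Lrp1 (adjusted p = 0.00262), Sdc1 (0.00482) and Rpsa (0.0499). With edgeR, Lrp1 passed without the low-count filter (0.00109), without DSS library 15 (0.0460) and without diet-alcohol library 35 (0.0287). Sdc1 passed in edgeR without the low-count filter (0.00335), without diet-alcohol library 35 (0.0434) and without 71 (0.0214).

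Cell type markers moved with the groups in part, and their share in the serpin differences was not tested. Of the 9 hepatocyte markers, Hp was higher (log2 fold change 2.66 ± 0.31, SE; edgeR adjusted p = 0.00263) and 8 did not pass, among them Alb (-1.20 ± 0.31, 0.115), Fgb (1.12 ± 0.28, 0.0938) and Ass1 (-0.79 ± 0.24, 0.171). DESeq2 called 4 of the 9, among them Alb, Fgb and Ass1 (adjusted p = 0.000283, 0.00119 and 0.0377), and limma-voom 1, and 5 of the 9 had an unadjusted p under 0.05 with edgeR. Without the low-count filter, Alb (0.0275) and Fgb (0.0377) passed in edgeR. The 9 markers summed to 48642 to 72903 CPM in the DSS libraries and 45973 to 64321 CPM in the diet-alcohol libraries, which overlap. Within that sum Alb and Hp moved in opposite directions, each without overlap. Alb stood at 30192.5 to 50256.5 CPM in the DSS libraries and at 14781 to 23397 CPM in the diet-alcohol libraries. Hp stood at 2782 to 4078 and at 15299 to 28156 CPM. The groups did not overlap for 4 of the 9 markers. Of 13 neutrophil markers 5 were tested and 4 were higher: Retnlg (4.25 ± 0.63, 0.00762), S100a9 (2.56 ± 0.44, 0.0147), Prtn3 and S100a8 (2.88 ± 0.54, 0.0236). All 5 tested had a log2 fold change above 0. The 13 listed markers summed to 4.19 to 16.2 CPM in the DSS libraries and 35.6 to 82.3 CPM in the diet-alcohol libraries, without overlap. Mpo and Ltf, listed but not tested, had 28 and 7 counts over all libraries. Without DSS library 48, 49 or 50 the calls of S100a9 (adjusted p 0.0671 to 0.0700) and S100a8 were lost, and that of S100a8 also without diet-alcohol library 45 or 65 (adjusted p 0.0539 to 0.107 over the 5). Both were also lost with the mitochondrial covariate (0.0522 and 0.0905). By limma-voom 1 of the 4 calls was kept.

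Of 10 Kupffer cell and macrophage markers 9 were tested, and Marco alone was higher (4.13 ± 0.64; edgeR adjusted p = 0.00891), a call lost without DSS library 48 or 49 or diet-alcohol library 35 (adjusted p 0.0519 to 0.0614), without the low-count filter (0.105) and with the mitochondrial covariate (0.0865). Their summed level was 194 to 319 CPM in the DSS libraries and 331 to 688 CPM in the diet-alcohol libraries, without overlap. Without Marco, the other 9 markers summed to 186 to 307 and 265 to 485 CPM, which overlap. edgeR called none of 10 stellate cell and fibroblast, 8 endothelial, 4 cholangiocyte and 4 platelet markers tested, of which 0, 2, 0 and 3 had an unadjusted p under 0.05. DESeq2 called 1 endothelial marker, Kdr (log2 fold change -1.58, adjusted p = 0.0185), and 1 platelet marker, Pf4 (1.78, 0.00679), and limma-voom none. In edgeR without the low-count filter, Kdr (adjusted p = 0.00403), Pf4 (0.00574) and the platelet marker Itga2b (log2 fold change 1.21, 0.0257) passed. Kdr also passed in edgeR without DSS library 15 (0.0350), and Pf4 without diet-alcohol library 45 (0.0478). Stellate and fibroblast markers summed to 71.6 to 203 and 57.9 to 280.5 CPM, and endothelial markers to 111 to 185 and 82.1 to 177 CPM, overlapping in each case. Platelet markers summed to 9.19 to 16.3 and 19.8 to 49.6 CPM, without overlap and with Gp1bb at no count. B and T cell markers were too low to test, at no more than 5.85 summed CPM for either list in any library.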

How the data were processed

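Liver RNA of 8 samples, 4 in each of 2 groups taken from the labels, was extracted with an RNeasy kit and made into mRNA libraries with a SMARTer kit, per the labels' protocols. The deposited table holds the authors' raw count and FPKM per gene and library, with gene positions and lengths. It also holds the authors' mean signal (normalized counts) per group, log2 fold change and p-value for the comparison, which were used only as a check: the deposited log2 fold changes had the same sign for 10 of 10 members and differed by at most 0.0035. The submitters' processing notes name GRCm38 and mm10. Neither headers nor labels name the aligner, the counting tool or the use of strand.

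Genes were filtered with filterByExpr, which left 11729, scaled by TMM and fitted by robust quasi-likelihood in edgeR 4.0.16 (F test, R 4.3.3), with Benjamini-Hochberg adjustment over all genes tested and a threshold of 0.05. CPM are counts scaled to the TMM-adjusted library size. Levels between genes use FPKM. Standard errors are the log2 fold change over the root of F. The fit was tested on simulated data.

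Alternatives were RLE and upper-quartile factors, DESeq2 1.42.0, limma-voom (limma 3.58.1), no filter, 1 CPM in 4 libraries, limma on log2(FPKM + 1) and log2(FPKM + 0.1), mitochondrial genes left out, their share as a covariate, near-identical copies summed, and each library left out.

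The members and gene lists were chosen with earlier results of these data known. Named were all members, up to 4 tested genes per list with the smallest p, and the 3 genes most like the highest and the lowest member, with a pseudocount of 1 CPM. Proz, F10, Elane, Mpo and Ltf were added after their values were seen. A gene that this rule names is not reported here. RefSeq positions come from GRCm38.p6, which matched all 10 members. Protein and promoter sequences were not analysed here. Nuclear counts differed 4.02-fold between the deepest and the shallowest library, and depth covers counting error only.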

Additional observations from a re-analysis of the deposited data

How the results depend on the processing

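No paired analysis was possible because the groups share no library numbers. The planned count of motif matches in promoters was not run. Of 182 member log2 fold changes under the alternatives (18 or 19 a gene), none reversed. All 182 differed from the reported value by less than the SD between libraries of a group (log2 CPM, pooled over the groups). Fits that share most or all of their libraries can hardly differ by that much, so little is read from this. Of 1214 log2 fold changes for the other named genes, 95 changed their side of the threshold and 7 changed sign, all of 3 genes that passed it in no fit. With the covariate Col1a1 was 0.071 and Serpinb6b 0.082. Krt19 was 0.016 on log2(FPKM + 1) and 0.039 on log2(FPKM + 0.1). With a library left out, Serpinb6b ran from -0.34 to 0.076 (above 0 without DSS 49) and Krt19 from -0.48 to 0.62 (above 0 without DSS 15 or diet-alcohol 45). The causes were not tested. The members past the threshold, 4 as reported, were 2 with the mitochondrial share as a covariate (Serpina3n and Serpina10) and 1 to 4 when each library was left out, the lowest without DSS library 48 (Serpina3n). Other serpins past it, 0 as reported, were 4 by DESeq2 (Serpina3i, Serpina7, Serpina12 and Serpinc1), 1 with no filter (Serpina12), 1 on log2(FPKM + 1) (Serpina6) and 0 to 1 with a library left out. Over all genes the count, 148 as reported, was 440 by DESeq2, 320 with no filter, 55 with the covariate, and 58 (without DSS 48) to 308 (without diet-alcohol 35) with a library left out, with 74, 77 and 83 without DSS 49, DSS 50 and diet-alcohol 45. The shares of the Serpina1 copies kept their direction when taken from counts in place of FPKM. At this depth 16 of the 44 other serpins passed the low-count filter, and 12 had no count.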

Other observations

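The values of a pair of further genes of the Serpina cluster are given here, chosen after they were seen. Serpina4-ps1, an unprocessed pseudogene on chromosome 12 (104080649 to 104086724, plus strand, GRCm38), had 667, 474, 130 and 329 counts in DSS libraries 15, 48, 49 and 50 and 51, 56, 133 and 23 counts in diet-alcohol libraries 35, 45, 65 and 71. In CPM the groups did not overlap, with means of 34.9 ± 14.4 and 5.19 ± 6.39 (SD, n = 4 each), a difference of -2.82 ± 0.73 on the log2 scale (SE; adjusted p = 0.104, edgeR). Serpina3i, which lies between Serpina3h and Serpina3j, did not pass the filter on low counts in the edgeR fit. It had 0, 0, 2 and 1 counts in the DSS libraries and 21, 74, 8 and 16 counts in the diet-alcohol libraries, so every diet-alcohol library was higher. DESeq2, which tested it without that filter, gave a log2 fold change of 4.22 ± 1.18 (SE; adjusted p = 0.0174). How reads of near-identical Serpina3 copies were assigned is not stated, so these few counts are uncertain.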
